A study of Mus musculus with 10 samples.

Results

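In fed mouse skeletal muscle, 2132 promoter sites were called for both the glucocorticoid receptor (GR) and lysine-specific demethylase 1 (LSD1). These sites were chosen by the fed peak calls themselves, as GR fed peaks with a midpoint at most 1000 bp upstream or 100 bp downstream of a RefSeq transcription start site (TSS) and that shared at least 1 bp with an LSD1 fed peak. They made up 67.6% of the 3153 promoter peaks of GR and 15.1% of all 14108 GR fed peaks, and they lay in the promoters of 2415 of 26180 annotated genes (9.22%). Their GR fed and LSD1 fed values are therefore a description only. The peak lists came from chromatin immunoprecipitation and sequencing of skeletal muscle from C57BL/6J mice, labelled 10 weeks old, whereas the text of the study gives another age. Mice were fed or had been starved for 24 h, and no genetic change or drug is named for these libraries. GR, LSD1 and histone H3 mono- or dimethylated at lysine 9 (H3K9me1 and H3K9me2) were each profiled in 1 fed and 1 starved library, which gave 8 lists. The muscle used and the number of animals behind each library were not given in the labels.

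GR is a nuclear receptor that enters the nucleus when glucocorticoids such as corticosterone bind it. It regulates genes from glucocorticoid response elements (GREs), palindromes that it binds as a dimer, and also through other DNA-bound factors. In skeletal muscle, glucocorticoid signalling is known for raising protein breakdown and for lowering protein synthesis when food is scarce. LSD1, encoded by Kdm1a, removes methyl groups from mono- and dimethylated lysines of histone H3, from lysine 4 in CoREST repressor complexes and from lysine 9 with some nuclear receptors.

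With 1 library per list, fed and starved muscle could not be compared against replicate error, so all shares describe these libraries and no p-value is given. The lists held from 6624 peaks (H3K9me2 starved) to 171402 peaks (H3K9me2 fed), and read depth is unknown. The methods of the study state a stricter false discovery rate than the lists show. The largest q-value was between 0.0925 and 0.0998 in every list, and 10.2% (LSD1 starved) to 70.4% (GR fed) of peaks had a q-value of 0.01 or less. The LSD1 starved list, with 66332 peaks, is far longer than the text of the study describes, so each LSD1 starved call below rests on the list as deposited, which may be another version. For H3K9me1 and H3K9me2 the fed and starved libraries carried different library codes, and the study lists a separate code for each GR and LSD1 library too. Condition and code therefore cannot be told apart for these marks or for GR and LSD1. The tissue label was checked with marker genes. Of 20 skeletal muscle markers, 9 had such a promoter site (Acta1, Actn3, Casq1, Ckm, Mylpf, Myod1, Pvalb, Tcap and Tnnc2). This compares with 0 of 22 markers of endothelial, stromal, immune, fat, nerve, satellite, smooth muscle and pericyte cells. The exact interval for the muscle markers, 23.1 to 68.5%, lay above the 9.22% of all annotated genes. That for the other markers, 0 to 15.4%, held it. At a q-value of 0.01 or less in all lists, 2 of the 20 muscle markers had a site (10.0%, interval 1.23 to 31.7%). This interval held the 3.21% of all genes, so at that threshold the muscle markers could not be told from all genes. An absent peak does not show that a cell type was absent.

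Few of the sites held a GRE-like element, and most were CpG-dense. A GRE-like element was defined as the arms AGAACA and TGTTCT separated by 3 bases, with at most 1 mismatch. It occurred in 6 of the 2132 sites (0.281%, exact Clopper-Pearson 95% CI 0.103 to 0.612). In 300 bp windows the share was 0.141% of the sites, beside 0.165% of all RefSeq promoters. The elements are shown in capitals with their flanks on the plus strand of GRCm38. The element of LOC108167736 touched an annotated exon within the window and is shown alone.
Per1, chr11:69099396-69099450: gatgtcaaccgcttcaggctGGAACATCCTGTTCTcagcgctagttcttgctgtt
Trim63, chr4:134314891-134314945: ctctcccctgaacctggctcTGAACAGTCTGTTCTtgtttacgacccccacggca
Sgk1, chr10:21993681-21993735: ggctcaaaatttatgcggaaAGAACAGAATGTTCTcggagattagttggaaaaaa
LOC108167736, chr1:154117622-154117636: AGAAAAACCTGTTCT
Gpr157, chr4:150087030-150087084: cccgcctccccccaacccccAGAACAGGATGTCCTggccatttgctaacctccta
Tnnc2, chr2:164779565-164779619: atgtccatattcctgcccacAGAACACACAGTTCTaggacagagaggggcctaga
The Sgk1 element had 0 mismatches and the other 5 had 1. Per1 encodes a clock repressor, Trim63 the muscle ubiquitin ligase MuRF1, Sgk1 a kinase induced by glucocorticoids, Gpr157 an orphan receptor and Tnnc2 fast skeletal troponin C.

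Another element searched for was GCGCATGCG, the motif of nuclear respiratory factor 1 (NRF1), an activator of nuclear genes for mitochondrial proteins. It occurred on either strand in 92 sites (4.32%, 95% CI 3.49 to 5.27). In CpG-rich windows of 300 bp (defined below), the share was 4.80% of the sites and 4.36% of CpG-rich RefSeq promoters. No mismatch was allowed here, unlike for the GRE, so the NRF1 and GRE counts are not comparable. Shown are 4 NRF1-containing sites at genes of mitochondria or splicing, with the motif in capitals, read on the plus strand and chosen because the window touched no exon.
Acadm, chr3:153944774-153944822: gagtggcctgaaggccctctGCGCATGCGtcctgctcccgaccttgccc
Lsm2, chr17:34981792-34981840: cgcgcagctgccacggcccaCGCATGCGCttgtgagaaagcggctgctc
Atp5g2, chr15:102671060-102671108: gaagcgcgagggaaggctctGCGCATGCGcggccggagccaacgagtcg
Timm13, chr10:80901134-80901182: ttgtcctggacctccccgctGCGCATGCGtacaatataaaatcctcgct
Acadm encodes medium-chain acyl-CoA dehydrogenase, Lsm2 a spliceosomal Sm-like protein, Atp5g2 a subunit of ATP synthase and Timm13 a chaperone of the mitochondrial intermembrane space. The capitals of Lsm2 hold the motif in its reverse complement.

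The range of CpG density can be read from 120 bases around the GR midpoint of 6 sites, in which each CG is written in capitals. The first 4 are at genes of stress and protein turnover and the last 2 at genes of the contractile apparatus and muscle energy.
Cited2, chr10:17722994-17723113: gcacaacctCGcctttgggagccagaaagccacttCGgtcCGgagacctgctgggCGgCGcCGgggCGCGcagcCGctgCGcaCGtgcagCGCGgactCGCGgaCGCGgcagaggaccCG
Bnip3, chr7:138909524-138909643: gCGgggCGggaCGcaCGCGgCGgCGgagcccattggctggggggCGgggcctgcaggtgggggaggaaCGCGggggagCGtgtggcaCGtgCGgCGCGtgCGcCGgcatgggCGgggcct
Psma6, chr12:55398658-55398777: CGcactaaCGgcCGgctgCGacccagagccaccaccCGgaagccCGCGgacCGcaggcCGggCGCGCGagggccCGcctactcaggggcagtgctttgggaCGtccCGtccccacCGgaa
Ddit4, chr10:59952155-59952274: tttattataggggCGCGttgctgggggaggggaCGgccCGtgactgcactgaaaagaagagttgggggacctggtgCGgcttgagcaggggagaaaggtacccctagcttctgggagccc
Tcap, chr11:98383492-98383611: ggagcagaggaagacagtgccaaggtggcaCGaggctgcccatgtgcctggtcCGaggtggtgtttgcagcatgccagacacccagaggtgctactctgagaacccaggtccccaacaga
Ckm, chr7:19410296-19410415: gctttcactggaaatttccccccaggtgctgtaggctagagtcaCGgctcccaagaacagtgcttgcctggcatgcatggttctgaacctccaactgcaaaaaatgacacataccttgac
In these windows Cited2 and Bnip3 each had 18 CG dinucleotides, Psma6 had 16 and Ddit4 had 5. Tcap had 2 and Ckm had 1. Cited2 encodes a transcriptional coregulator, Bnip3 a mitophagy receptor, Psma6 a proteasome core subunit, Ddit4 the mTORC1 inhibitor REDD1, Tcap the Z-disc protein telethonin and Ckm muscle creatine kinase.

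GR and LSD1 peaks overlapped near the TSS. The GR midpoints had a median of -99 bp from the TSS (quartiles -239 and -6 bp) and 1628 sites (76.4%) had the midpoint within 250 bp of a TSS. The LSD1 midpoints had a median of -80 bp (quartiles -215 and 25 bp). GR and LSD1 midpoints were a median of 101 bp apart, and the peaks shared a median of 181 bp. LSD1 lay downstream of GR in the direction of transcription in 1252 sites, upstream in 873, and at the same base in 7. The GR window of the rule ends at 100 bp downstream, whereas LSD1 midpoints were not limited by it, so this order is a description. An LSD1 peak was wholly inside the GR peak in 545 sites (25.6%). GR peaks at the sites were from 117 to 2752 bp long, with a median of 349 bp. The median was 270 bp for the 1021 promoter GR peaks without LSD1 and 197 bp for the 3288 promoter LSD1 peaks without GR.

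**Figure D1:**
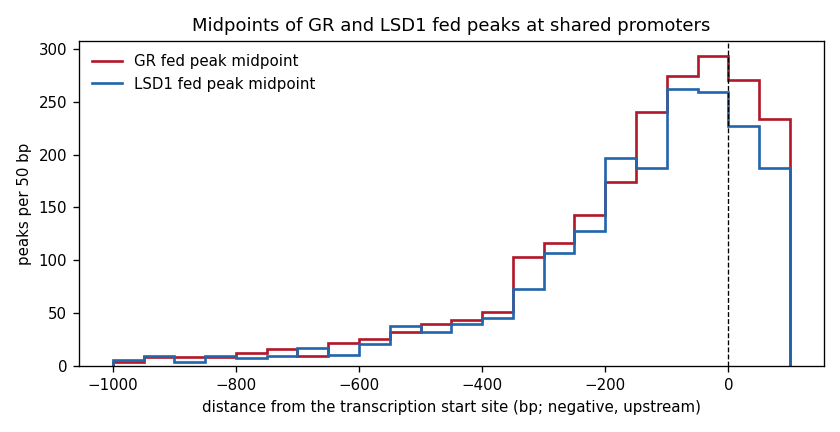
Number of GR fed and LSD1 fed peak midpoints per 50 bp against the distance from the TSS in bp, for the 2132 sites. Both lines peak in the last 100 bp before the TSS, the GR median being -99 bp and the LSD1 median -80 bp. LSD1 midpoints beyond 100 bp downstream are not drawn.

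Some sites served more than 1 gene. The midpoint was in the promoter window of at least 2 genes in 300 sites (14.1%), and in 282 of the sites (13.2%) these genes were on opposite strands. The share on opposite strands was 9.70% for promoter GR peaks without LSD1 and 12.2% for promoter LSD1 peaks without GR. A site of this kind, chr1:55087908-55088106, served both Hspd1 and Hspe1, which encode the mitochondrial chaperonin and its co-chaperonin. Another, chr5:30155031-30155434, served Hadha and Hadhb, the alpha and beta subunits of the mitochondrial trifunctional protein of fatty acid oxidation. The midpoint lay in an annotated exon in 1034 sites (48.5%). Sites on the X chromosome were few, with 5 of 2132 (0.235%), whereas 4.30% of annotated genes are on X. All 8 lists were low there, from 0.498% of peaks in GR starved to 1.43% in H3K9me2 starved. The 5 were at Mid1ip1, Fam90a1b, Tsc22d3, Txlng and G530011O06Rik, which were named after their values had been seen.

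At the edges of the rule, the outermost upstream site was at Zfp516 (-981 bp) and the outermost downstream site at Gm3948 (100 bp). The nearest GR and LSD1 peaks left out were at 9330111N05Rik (-1002 bp) and Mmd (101 bp). The GR and LSD1 peaks shared 1 bp at Cox16, and at Snapc3 they touched without sharing a base. GR fed enrichment at these 6 peaks was between 2.75-fold (Mmd) and 3.69-fold (9330111N05Rik).

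The first question was how many of the sites were also called in starved muscle. GR starved peaks overlapped 1847 of the 2132 sites (86.6%, 95% CI 85.1 to 88.0), beside 65.8% of all GR fed peaks. LSD1 starved peaks overlapped 1057 sites (49.6%, 95% CI 47.4 to 51.7), beside 21.4% of all GR fed peaks. Of these 1057 sites, 253 (23.9%) had an LSD1 starved q-value of 0.01 or less. Promoter GR peaks without LSD1 were called in GR starved in 64.3% and in LSD1 starved in 23.6%. Promoter LSD1 peaks without GR were called in 49.2% and 27.3%. Peaks with both proteins outside promoters had a GR starved share near that of the promoter sites, 80.9%, and an LSD1 starved share of 26.6%. Peak length differed between these classes, but within equal windows of 500 bp around the midpoint the 3 promoter classes had the same order. In these windows the sites had 87.1% for GR starved and 51.6% for LSD1 starved, promoter GR peaks without LSD1 65.8% and 27.6%, and promoter LSD1 peaks without GR 56.1% and 33.3%. The intervals cover counting error alone and treat neighbouring peaks as independent, and the differences between classes were not tested. When each starved list was cut to the length of its fed list by fold enrichment, the shares of the sites were 48.3% for GR starved and 15.8% for LSD1 starved. Shares of all GR fed peaks and of the other classes were not computed at equal length. Whether the classes differ there is therefore unknown.

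**Figure D2:**
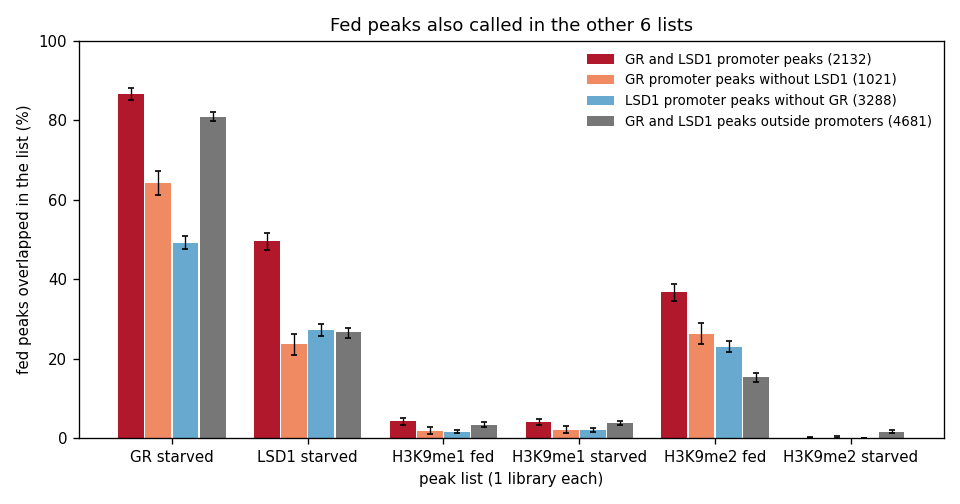
Percent of fed peaks overlapped by at least 1 bp in each of the other 6 lists (1 library each), for the 2132 GR and LSD1 promoter sites and 3 comparison classes, with exact 95% binomial intervals as error bars. The sites stand at 86.6% in GR starved, 49.6% in LSD1 starved and 36.7% in H3K9me2 fed.

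Both proteins were called again in starved muscle at 966 sites (45.3%), GR without LSD1 at 881 (41.3%), LSD1 without GR at 91 (4.27%) and neither at 194 (9.10%). Trim63, Fbxo32 and Ddit4 kept both calls. Per1, Sgk1 and Calm2, a calmodulin gene, kept the GR call only. Kdm1a, the gene of LSD1 itself, kept the LSD1 call only, and Mtor, the kinase of mTORC1, kept neither (both were named after their values had been seen). Sites with both calls had longer fed GR peaks (median 402 bp) than sites with neither (272 bp). Their median GR fed enrichment was 3.10-fold and 2.96-fold.

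Enrichment over input was lower in the starved list at most sites called in both conditions. Among the 1847 sites with a GR starved peak, the median ratio of starved to fed enrichment was 0.911, and 429 (23.2%) were higher in starved muscle. Among the 1057 sites with an LSD1 starved peak the median ratio was 0.867, and 137 (13.0%) were higher. The corresponding medians for sites of both proteins outside promoters were 0.857 and 0.825. The GR ratio was 0.907 for promoter GR peaks without LSD1, and the LSD1 ratio 0.879 for promoter LSD1 peaks without GR. Over the whole lists, median enrichment was 3.29-fold in GR fed and 2.70-fold in GR starved. For LSD1 it was 4.03-fold and 3.44-fold. The sites were chosen on their fed and not on their starved calls, so these ratios are a description. The starved GR list held 26 sites with at least 5-fold enrichment, beside 51 in the fed list. Trim63 had 6.40-fold GR enrichment in fed and 8.70-fold in starved muscle, and LSD1 enrichment of 4.29-fold and 4.24-fold. Fbxo31, an F-box ubiquitin ligase subunit, had 2.75-fold and 4.53-fold for GR and 6.50-fold and 3.27-fold for LSD1. Ddit4 had 3.39-fold and 3.31-fold for GR and 3.89-fold and 5.10-fold for LSD1. The q-value of the LSD1 starved peak was 0.00148 at Trim63, 0.0714 at Fbxo31 and 1.25e-07 at Ddit4. Many LSD1 starved peaks of the genes named below were likewise weak, with q-values above 0.01. These promoters thus ranked in different orders for GR and for LSD1, and no replicate gives an error for any of the values.

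**Figure D3:**
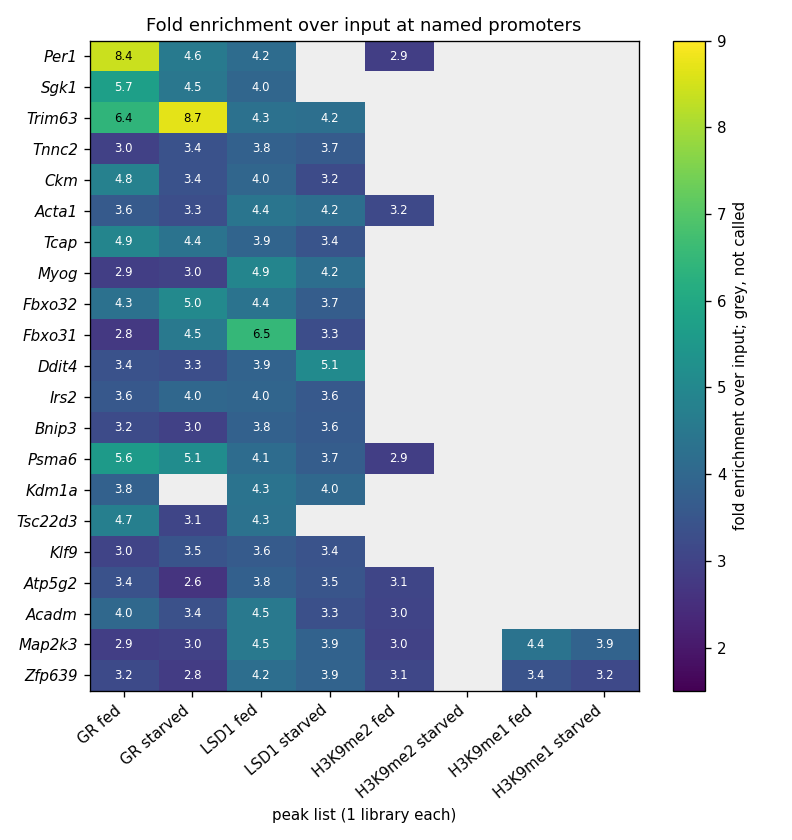
Fold enrichment over input in each of the 8 lists (1 library each) at named promoters, grey where no peak was called. Trim63 has the highest starved GR value shown (8.70), Fbxo31 the highest fed LSD1 value (6.50), and H3K9me1 peaks were called only at Map2k3 and Zfp639 among the genes drawn.

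H3K9me2 was called at far more of the sites in fed than in starved muscle. H3K9me2 fed peaks overlapped 782 sites (36.7%, 95% CI 34.6 to 38.8), beside 16.5% of all GR fed peaks, 26.2% of promoter GR peaks without LSD1 and 23.0% of promoter LSD1 peaks without GR. In H3K9me2 starved, 1 site was overlapped (0.0469%), beside 0.766% of all GR fed peaks. That site, at G530011O06Rik on X, was named after its value had been seen. H3K9me2 fed is the longest list and H3K9me2 starved the shortest. With the fed list cut to the 6624 strongest peaks, its share of the sites was 0.938%. H3K9me1 was called at 90 sites in the fed list (4.22%, 95% CI 3.41 to 5.16), beside 2.27% of all GR fed peaks. In the starved list it was called at 86 sites (4.03%, 95% CI 3.24 to 4.96), beside 2.80%. With equally long H3K9me1 lists the starved share was 0.704%. For neither mark was the share of all GR fed peaks computed at equal length. Only 212 of the 782 sites with H3K9me2 fed had a q-value of 0.01 or less for that mark.

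The same marks were counted in the fixed promoter windows of TSSs to remove the influence of GR peak length. H3K9me2 fed peaks were found in 49.5% of 2727 windows with a site and in 20.3% of 28876 windows without. Among CpG-rich windows alone the shares were 53.1% (95% CI 50.6 to 55.5) of 1666 with a site and 35.1% (95% CI 33.9 to 36.3) of 5857 without. GR starved peaks were found in 89.6% and 47.7% of these CpG-rich windows, and LSD1 starved peaks in 60.0% and 29.7%. Windows of genes with several TSSs overlap each other, and the differences were not tested.

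Most sites were called in 4 of the 8 lists (883 sites, 41.4%) or in 3 (644, 30.2%), and 136 (6.38%) were in the 2 fed lists alone. No site was in all 8 lists. The 4 sites called in 7 were at Gm15408, Tubgcp2, Zfp639 and Map2k3. Map2k3 encodes an upstream kinase of p38 and Tubgcp2 a gamma-tubulin complex protein. At Map2k3 the enrichment was 2.88-fold for GR fed, 2.95-fold for GR starved, 4.53-fold for LSD1 fed, 3.85-fold for LSD1 starved, 4.36-fold for H3K9me1 fed, 3.89-fold for H3K9me1 starved and 2.98-fold for H3K9me2 fed. Its missing list was H3K9me2 starved. Stat3, a cytokine-activated transcription factor, and Tsc22d1, a leucine zipper factor, were each called in 6 lists. Stat3 had H3K9me1 in fed muscle and Tsc22d1 in starved muscle.

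Enrichment at the sites was moderate. The median was 3.06-fold for GR fed (range 1.89 to 11.2), beside 3.29-fold over all GR fed peaks, and 4.04-fold for LSD1 fed (range 2.71 to 7.49), beside 4.03-fold over all LSD1 fed peaks. The highest GR values were 11.2-fold at Vmp1, an autophagy protein of the endoplasmic reticulum, 9.78-fold at E030003E18Rik, 9.62-fold at Shld1, a DNA repair gene, 8.80-fold at 2310065F04Rik and 8.50-fold at Gm15737. Their LSD1 fed enrichment was 3.81-fold, 4.37-fold, 3.88-fold, 4.87-fold and 4.40-fold. The highest LSD1 values were 7.49-fold at Zbtb22, 6.50-fold at Fbxo31, 6.26-fold at Itm2b, 6.09-fold at Irf2bp2 and 6.05-fold at Mamstr, a coactivator of MEF2. The sites with the highest GR values and those with the highest LSD1 values were different genes. GR enrichment had a q-value of 0.01 or less at 1370 sites (64.3%) and LSD1 enrichment at 1109 (52.0%).

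The sites were mostly CpG-rich, here defined as GC content above 50% with an observed over expected CpG ratio above 0.6. By this definition 1719 of the 2132 sites (80.6%) were CpG-rich. In equal 300 bp windows at the GR midpoint, the median GC content was 64.7% and the median CpG ratio 0.809. Promoter GR peaks without LSD1 had 60.7% and 0.725, promoter LSD1 peaks without GR 64.7% and 0.842, and peaks of both proteins outside promoters 53.3% and 0.249. All 32817 RefSeq promoters of that length had 52.7% and 0.383.

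The other 413 sites (19.4%) held most of the strong GR peaks. At least 5-fold GR fed enrichment was found at 39 of them (9.44%) and at 12 of the CpG-rich sites (0.698%). All 6 GRE-like elements were in this group, 0 in the CpG-rich group. The CpG ratios of these 6 sites ran from 0.169 (Tnnc2) to 0.592 (Sgk1). Sgk1 and Per1 (0.553) were close under the limit of 0.6. The muscle genes Ckm (CpG ratio 0.199), Acta1 (0.192), Tcap (0.221), Tnnc2 (0.169), Mylpf (0.105) and Cryab (0.144) also belonged to the group that was not CpG-rich, as did Vmp1 (0.189). In starved muscle GR was called at 86.8% of CpG-rich and 86.0% of the other sites. LSD1 was called at 51.5% (95% CI 49.1 to 53.9) of CpG-rich and 41.6% (95% CI 36.8 to 46.6) of the other sites. H3K9me2 fed was called at 39.0% (95% CI 36.7 to 41.4) and 26.9% (95% CI 22.7 to 31.4). The median GR peak length was 350 bp in the CpG-rich and 338 bp in the other sites.

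Motif matches were counted in 300 bp windows and then in the CpG-rich windows alone. All motifs were searched on both strands without mismatch, apart from the GRE. The SP and KLF box GGGCGG was found in 71.2% of the sites and 35.6% of all RefSeq promoters, the ETS motif CCGGAAGT in 7.04% and 3.89%, and the NRF1 motif in 3.94% and 1.75%. TATAAA was found in 4.17% and 13.6%. The NFY box CCAAT was found in 38.2% and 37.4%. Within CpG-rich windows, SP and KLF was at 79.6% of the sites (95% CI 77.6 to 81.6) and 75.9% of CpG-rich RefSeq promoters (95% CI 75.1 to 76.7), NRF1 at 4.80% and 4.36%, and ETS at 8.47% and 8.65%. The NFY box was at 38.6% (95% CI 36.2 to 40.9) and 35.2% (95% CI 34.3 to 36.1). The GRE-like element was in 0.141% of site windows, 0.165% of all RefSeq promoters and 1.14% of GR and LSD1 windows outside promoters. Over windows of all base compositions the cAMP response element TGACGTCA was at 2.49% of the sites and 1.79% of all promoters, the E-box CACGTG at 10.5% and 7.15%, and the YY1 motif AAGATGGC at 4.13% and 2.74%. Within CpG-rich windows the cAMP response element was at 3.00% of the sites and 3.73% of CpG-rich RefSeq promoters. There the E-box was at 11.1% and 11.4%, YY1 at 4.80% and 4.83%, and TATAAA at 3.18% and 4.54%. No motif contains another, but matches to different motifs can share bases. A match is not a bound site, and its absence says nothing of the factor.

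**Figure D4:**
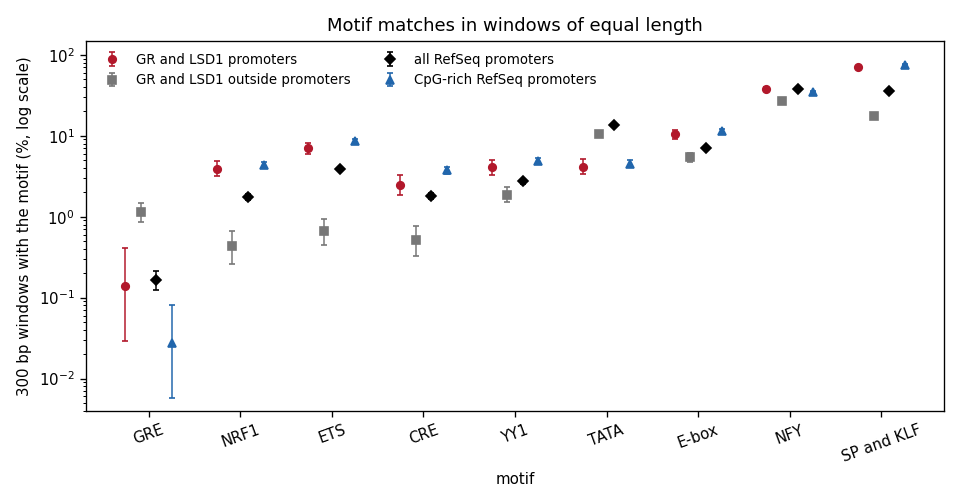
Percent of 300 bp windows with at least 1 match to each motif (log axis, exact 95% binomial intervals), for the GR and LSD1 promoter sites, GR and LSD1 peaks outside promoters, all RefSeq promoters and CpG-rich RefSeq promoters. The sites lie near the CpG-rich promoters for NRF1 (3.94% and 4.36%), and the GRE-like element is most frequent outside promoters (1.14%).

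Genes with such a promoter were then grouped by function in 32 lists. Against the 9.22% of all annotated genes, the exact interval of the share lay above this value in 23 lists, held it in 7 and lay below it in 2. At a q-value of 0.01 or less in all lists, 3.21% of genes had a site, and the interval lay above this in 10 lists, held it in 21 and lay below it in 1. The 10 lists were glucocorticoid targets, clock, atrophy genes, LSD1 complexes and H3K9 enzymes, GR chaperones and coregulators, deubiquitinases, heat shock proteins, sarcomere, excitation-contraction coupling and glycolysis, and not, for example, autophagy (2 of 41), mTORC1 (3 of 38) or splicing (5 of 85). Genes with a CpG-rich RefSeq promoter form a second background, of which 1683 of 8988 (18.7%) had a site, against 299 of 10509 (2.85%) with another promoter. The lists were drawn up with results of these data known, and paired genes can share a site.

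**Figure D5:**
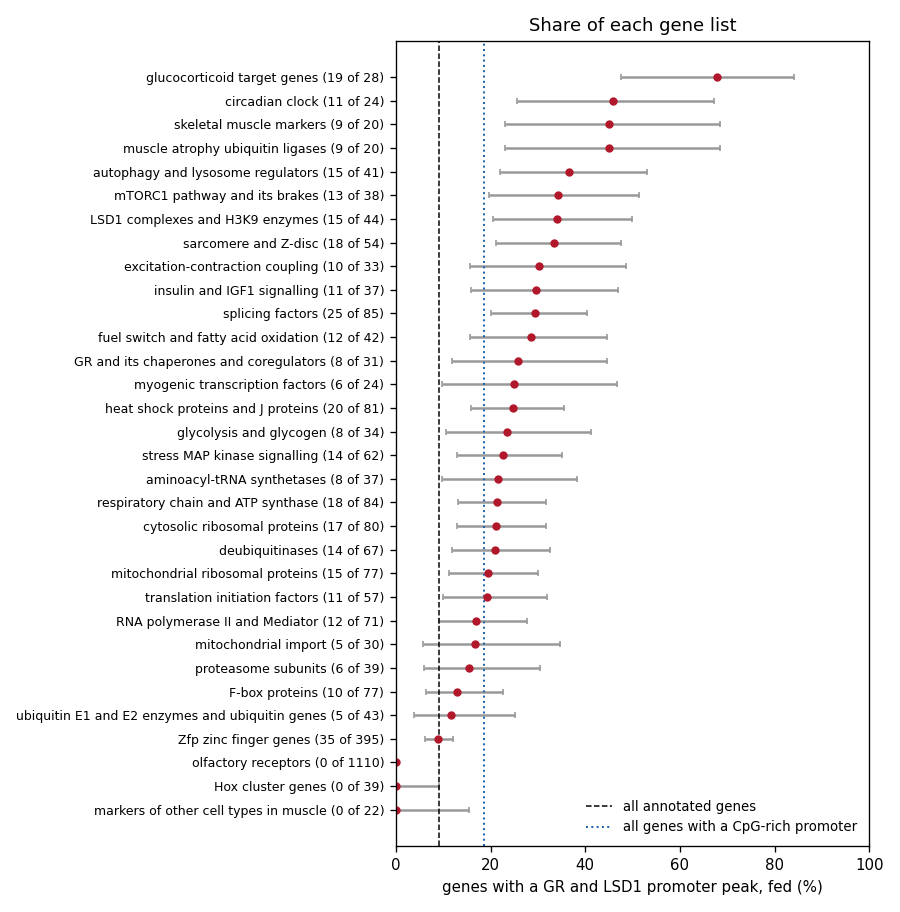
Percent of genes of each list with a GR and LSD1 promoter site in fed muscle (points, exact 95% binomial intervals). The dashed line marks all annotated genes (9.22%) and the dotted line all genes with a CpG-rich promoter (18.7%), and glucocorticoid target genes stand highest at 67.9%.

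Known glucocorticoid target genes held the highest share, 19 of 28 (67.9%, 95% CI 47.6 to 84.1). All 19 were also called in GR starved and 14 in LSD1 starved, beside 2096 (86.8%) and 1208 of all 2415 genes with a site. Among those with a CpG-rich promoter the count was 15 of 19. Cebpb and Cebpd encode transcription factors of the acute phase and of fat cell formation. At Cebpb GR enrichment was 2.95-fold in fed and 2.97-fold in starved muscle, and LSD1 enrichment 3.96-fold and 4.28-fold. Klf13, a Krüppel-like factor, had 2.70-fold and 2.85-fold for GR and 4.38-fold and 3.54-fold for LSD1. Per1 had 8.40-fold and 4.58-fold for GR and 4.15-fold for LSD1 fed, with no LSD1 starved peak. Tsc22d3 (GILZ), Mt1 (a metallothionein), Klf9 and Zbtb16 were named after their values had been seen. Mt1 had GR enrichment of 5.31-fold in fed and 6.49-fold in starved muscle, and Tsc22d3 4.73-fold and 3.06-fold. Zbtb16 had LSD1 fed enrichment of 5.08-fold and no LSD1 starved peak. Among the 9 list genes without a site, Cdkn1a, Lcn2 and Mt2 had a promoter GR peak without LSD1, Klf15 an LSD1 peak without GR, and Fkbp5, Nfkbia, Pck1, Tat and Angptl4 neither.

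Clock genes followed with 11 of 24 (45.8%), of which 10 were called in GR starved and 5 in LSD1 starved, shares near those of all genes with a site. Bhlhe40, a repressor of the clock, had 3.86-fold GR fed, 3.72-fold GR starved, 4.59-fold LSD1 fed, 3.33-fold LSD1 starved and 3.20-fold H3K9me2 fed enrichment. Tef, a PAR bZIP factor of clock output, had 2 sites at separate TSSs. The site at chr15:81810145-81810907 had 5.11-fold GR fed enrichment and was called in LSD1 starved, whereas that at chr15:81802363-81802629 had 2.82-fold and was not.

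Genes of protein breakdown were counted in several lists. Of 20 genes linked to atrophy, mainly ubiquitin ligases with Mstn and Foxo genes, 9 had a site (45.0%, 95% CI 23.1 to 68.5), and all 9 were called in GR starved, beside 86.8% of all genes with a site. Fbxo32, which encodes atrogin-1, had GR enrichment of 4.30-fold in fed and 5.02-fold in starved muscle, and LSD1 enrichment of 4.36-fold and 3.70-fold. Ubr2, an N-end rule ligase, had 4.58-fold and 3.11-fold for GR and 5.58-fold and 3.09-fold for LSD1, together with H3K9me2 fed. The intervals of the 39 proteasome subunits (6 with a site, 15.4%), the 77 F-box proteins (10, 13.0%) and the 43 ubiquitin E1 and E2 enzymes and ubiquitin genes (5, 11.6%) held the 9.22% of all genes. Of the 67 deubiquitinases, 14 had a site (20.9%). The proteasome subunit gene Psma6 had 5.58-fold GR fed and 5.14-fold GR starved enrichment, and its site was CpG-rich. The difference in share between ligases and proteasome subunits was not tested.

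Autophagy and lysosome genes had 15 sites among 41 genes (36.6%) and mTORC1 genes 13 among 38 (34.2%). Lamp1 and Ctsd, a lysosomal membrane protein and a lysosomal protease, were each called in 5 lists. Ctsd had 3.12-fold GR fed and 4.06-fold GR starved enrichment. Bnip3 had 3.21-fold and 2.95-fold, and Atg14, a subunit of the autophagy lipid kinase, 4.68-fold and 2.74-fold. In this list, 6 of 10 genes whose promoter was not CpG-rich had a site, beside 7 of 24 with a CpG-rich promoter. In the mTORC1 list, Rragc and Rragd encode Rag GTPases that signal amino acids, and both were called in starved muscle for GR and LSD1. Insulin signalling genes had 11 sites among 37 (29.7%). Irs2, an insulin receptor substrate, had 3.57-fold GR fed, 4.01-fold GR starved, 3.96-fold LSD1 fed and 3.59-fold LSD1 starved enrichment.

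Muscle genes had sites at 18 of 54 sarcomere genes (33.3%), 10 of 33 genes of excitation-contraction coupling (30.3%) and 6 of 24 myogenic transcription factors. Acta1, skeletal alpha-actin, had 3.62-fold GR fed, 3.31-fold GR starved, 4.42-fold LSD1 fed, 4.21-fold LSD1 starved and 3.16-fold H3K9me2 fed enrichment. Ckm had 4.80-fold and 3.40-fold for GR and 3.99-fold and 3.21-fold for LSD1. Tcap had 4.91-fold and 4.37-fold for GR and 3.91-fold and 3.44-fold for LSD1. Myog, encoding myogenin, had 2.88-fold and 2.97-fold for GR and 4.90-fold and 4.22-fold for LSD1, and shared its site with the noncoding RNA Myoparr. Mef2a was called in 5 lists, with 4.12-fold GR fed enrichment. Of the 40 sarcomere genes matched to a RefSeq promoter, 34 had one that was not CpG-rich. A site was found at 10 of these 34 genes (29.4%), beside 2.85% of all such genes.

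Among genes of mitochondrial energy production, sites were found at 18 of 84 genes of the respiratory chain and ATP synthase (21.4%), 12 of 42 genes of fuel switching and fatty acid oxidation (28.6%), 15 of 77 mitochondrial ribosomal proteins (19.5%) and 5 of 30 import genes (16.7%). Of the 51 respiratory chain genes with a CpG-rich promoter 17 had a site (33.3%), beside 18.7% of all such genes. That share was 33.3% for fuel switching and fatty acid oxidation, 25.9% for mitochondrial ribosomal proteins and 16.7% for import genes. At a q-value of 0.01 or less, 3 of the 84 respiratory chain genes had a site (3.57%), beside 3.21% of all genes. Ndufa6, a complex I subunit, was called in 6 lists and had the highest H3K9me1 fed value among the named genes, 5.98-fold. Acadm had 4.03-fold GR fed, 3.37-fold GR starved, 4.53-fold LSD1 fed and 3.33-fold LSD1 starved enrichment. Sdha, a complex II subunit, had 3.22-fold, 3.16-fold, 4.45-fold and 3.35-fold in the same order, with 4.36-fold H3K9me2 fed. Of 34 genes of glycolysis and glycogen 8 had a site (23.5%), and Pkm, pyruvate kinase, had 5.04-fold GR fed enrichment. Among the glycolysis and glycogen genes with a CpG-rich promoter the share was 21.7%, beside 18.7% of all such genes.

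Regulators of chromatin and of GR itself were among the genes. Of 44 genes for LSD1 complexes and H3K9 enzymes 15 had a site (34.1%), 14 of them called in GR starved and 9 in LSD1 starved (2096 and 1208 of all 2415 genes with a site). Rcor1 encodes CoREST, the partner of LSD1, and had 3.15-fold GR fed, 3.27-fold GR starved, 4.23-fold LSD1 fed and 3.23-fold LSD1 starved enrichment. Kdm1b, the paralog of LSD1, had 3.05-fold, 2.87-fold, 4.62-fold and 3.21-fold. Kdm1a, named after its values had been seen, had 3.82-fold GR fed, 4.35-fold LSD1 fed and 4.04-fold LSD1 starved enrichment and no GR starved peak. Nr3c1, the gene of GR, had a promoter GR peak without LSD1. Of 31 GR chaperones and coregulators, 8 had a site (25.8%), Hspa8, Hsp90ab1, Carm1 and Hdac3 among them. Of 81 heat shock and J protein genes, 20 had a site (24.7%), and 11 of these 20 were called in H3K9me2 fed, beside 37.3% of all genes with a site.

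Genes of general gene expression were also counted. Splicing factors had 25 sites among 85 genes (29.4%), cytosolic ribosomal proteins 17 of 80 (21.2%), tRNA synthetases 8 of 37 (21.6%), initiation factors and their regulators 11 of 57 (19.3%), RNA polymerase II and Mediator genes 12 of 71 (16.9%) and stress MAP kinase genes 14 of 62 (22.6%). Polr2a, the largest polymerase II subunit, had 2.59-fold GR fed, 2.99-fold GR starved, 4.34-fold LSD1 fed and 4.74-fold LSD1 starved enrichment. Zfp zinc finger genes had 35 of 395 (8.86%), near the 9.22% of all genes. None of 39 Hox genes and none of 1110 olfactory receptor genes had a site, families that are largely silent in adult muscle or outside sensory neurons.

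Sites of both proteins outside promoters were also counted near the genes with a promoter site. A GR fed peak outside promoters that shared bases with an LSD1 fed peak lay within 30 kb of a TSS in 652 of the 2415 genes (27.0%, 95% CI 25.2 to 28.8). The share was 23.7% (95% CI 21.2 to 26.4) for genes with a promoter GR peak without LSD1, 21.1% (95% CI 19.7 to 22.6) for genes with a promoter LSD1 peak without GR, and 15.4% for all genes. The first 2 intervals overlap. Within 100 kb the shares were 52.5%, 50.8%, 45.1% and 34.9%. A GRE-like element was held by such a distal site in 23 of the 2415 genes (0.952%), beside 1.01% of genes with a promoter GR peak without LSD1, 0.732% of genes with a promoter LSD1 peak without GR and 0.409% of all genes. Within 100 kb these shares were 1.86%, 2.30%, 2.04% and 1.13%.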

How the data were processed

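Chromatin immunoprecipitation libraries of fed and starved mouse skeletal muscle were grouped by the sample labels (10 libraries, 2 of them input). Reads were demultiplexed with bcl2fastq 2.20.0.422 per the labels, mapped by the authors to mm10 (GRCm38) and filtered for unique locations and a blacklist that the methods give for the human genome. The authors ran MACS2 in broad mode on each library against input. Their methods state a filter at a false discovery rate of 0.01, whereas the lists reach q-values of 0.0998, and they were used as deposited. The deposited lists give per peak a fold enrichment as a ratio, −log10 of p- and q-values and a score, which was not used. Where several peaks overlapped a site, the highest fold enrichment was taken. Read depth was not analysed here.

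Overlaps were computed in Python 3.11.15 with pandas 2.3.3, pysam 0.24.0 and scipy 1.17.1, and tested on simulated data. Promoters came from 45756 NM_ and NR_ transcripts, and sequences from GRCm38. RefSeq promoter sequences matched 19497 of 26180 genes by symbol. Gene families were collected by symbol pattern, so regulators with such a symbol are included.

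The sites, gene lists and alternatives were chosen with earlier results of these data known. Genes named were those used as examples by the study, the 5 highest enrichments for GR and for LSD1, up to 4 genes per list called in most lists, sites with a GRE-like element, sites called in most lists (at most 6) and sites at the limits of the rule. Cryab, Mylpf, Hadha, Hspd1, Hspe1, Klf9, Mt1, Tsc22d3, Zbtb16 and genes without a site were named after their values had been seen. Alternatives were stricter q-values or fold enrichments, other overlaps and promoter windows, autosomes and X, NM_ transcripts and lists of equal length. The CpG-rich alternative was chosen after seeing the data.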

Additional observations from a re-analysis of the deposited data

How the results depend on the processing

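No paired analysis was possible because each group is 1 library. Apart from the 500 bp window, list shares under the alternatives were counted for the sites only. Whether the sites differed from all GR fed peaks or the other classes under those alternatives is therefore unknown. At a q-value of 0.01 or less in all lists, 740 sites remained by the rule in 3.21% of genes, of which 68.5% were called in GR starved, 15.1% in LSD1 starved, 11.1% in H3K9me2 fed, 0% in H3K9me2 starved and 1.76% in each H3K9me1 list, and 78.1% were CpG-rich. At a fold enrichment of at least 3, there were 1230 sites in 5.29% of genes, with 40.2% in GR starved, 31.1% in H3K9me2 fed, 0% in H3K9me2 starved and 78.0% CpG-rich. With 50% of the shorter peak shared, the shares were 81.8% for GR starved, 42.6% for LSD1 starved, 3.19% for H3K9me1 starved, 30.9% for H3K9me2 fed and 7.98% of genes. With midpoints within 500 bp they were 83.6%, 55.2%, 5.83%, 45.2% and 10.0%. Lists of equal length gave 48.3% for GR starved, 15.8% for LSD1 starved, 0.704% for H3K9me1 starved and 0.938% for H3K9me2 fed. The 500 bp window gave 39.0% for H3K9me2 fed. The window to 1 kb downstream gave 11.7% of genes. NM_ transcripts gave 10.4% of genes and 0% in H3K9me2 starved. CpG-rich sites alone gave 39.0% in H3K9me2 fed and 0% in H3K9me2 starved. Distal sites were found in 52.5% of genes within 100 kb and in 19.0% at a q-value of 0.01. Gene lists with an interval above the share of all genes numbered 23, against 10 at a q-value of 0.01, 16 at a fold enrichment of 3 and 19 to 23 under the other 5 alternatives. The cause of these shifts was not tested. The NRF1 and GRE-like shares stayed within their intervals under the alternatives run for them. Of 231 other values, 193 stayed within the interval of the main value, and 36 of the 38 outside came from the q-value (23) or fold (13) threshold. Depth is unknown, so a missing call may reflect depth.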

Other observations

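Some genes had sites at separate TSSs with unlike values. These genes were named after their values had been seen. Rpl3l, which encodes a ribosomal protein paralog of heart and skeletal muscle, had a site at chr17:24732530-24732900 with 8.35-fold GR fed, 5.10-fold GR starved and 3.72-fold LSD1 fed enrichment. Its other site, at chr17:24727486-24728125, had 3.05-fold GR fed, 3.86-fold GR starved and 3.87-fold LSD1 fed enrichment. Jmjd1c, of the family of H3K9 demethylases, had 6.06-fold GR fed enrichment at chr10:67126404-67126636, a CpG-rich site, and 3.33-fold at chr10:67185655-67185881. Sesn1, a sestrin that restrains mTORC1, had 2 sites of similar GR fed enrichment (2.66-fold and 2.89-fold), each also called for GR and LSD1 in starved muscle.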
